A study of Mus musculus with 10 samples.

Results

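Oxidative phosphorylation (OXPHOS) genes were taken as the nuclear protein-coding genes whose mm10 symbol starts with Nduf, Sdha, Sdhb, Sdhc, Sdhd, Uqcr, Cox4i, Cox5, Cox6, Cox7, Cox8 or Atp5. The data were StringTie values for 3′UTR with 2 kb added downstream, in TPM, a level per transcript length and library. Features with identical coordinates were summed into a site. The rule found 139 features at 113 sites of 97 genes, among 43031 features at 28706 sites in all. Complex I had 42 sites (36 genes), complex II 4 sites (4 genes), complex III 8 sites (8 genes), complex IV 22 sites (20 genes) and complex V 19 sites (16 genes). The remaining 18 sites belong to 13 genes that share a prefix but encode assembly factors, such as the Ndufaf and Sdhaf genes, and they are given apart. A gene is described by its lead site, the site with its highest mean TPM.

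RNA-seq was done on embryonic stem cells (ESC) of strain C57BL/6, all grown with LIF on mitomycin C-treated fibroblasts or on gelatin. WT cells were wild type. DIDO3ΔE16 cells lacked exon 16, which is specific to the DIDO3 isoform; the floxed exon was removed in mice carrying Sox2-Cre. DIDO3ΔCT+HADIDO3 cells carried a different, constitutive deletion of the DIDO3 C terminus and expressed HA-tagged DIDO3, so they are not a rescue of the DIDO3ΔE16 cells themselves. Each group had 3 libraries. Of the 4 WT samples in the labels, replicates 2 and 3 carry the same library code, so they counted as 1 library, WT 2-3. The sources do not say whether libraries of a group came from separate cultures or clones, so p-values measure the spread between these libraries.

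In the inner mitochondrial membrane, complexes I and II feed electrons to ubiquinone, complex III passes them to cytochrome c, and complex IV reduces oxygen. Complexes I, III and IV pump protons, and complex V, the ATP synthase, uses the gradient. Complex II is also an enzyme of the tricarboxylic acid cycle, and it is the complex with no subunit encoded by mitochondrial DNA. Several subunits have paralogs used in heart, muscle, testis or low oxygen.

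Depth and group checks were as follows. Bases in features ranged from 1.46 to 2.61 Gb per library, at which 1 TPM corresponded to a mean coverage of 0.434 to 0.775. Libraries correlated at 0.931 to 0.937 within groups and 0.866 to 0.905 between them. The distal site of Dido1, the targeted gene, starts in the exon that was deleted and had 16.1 TPM in WT, 0.455 TPM in DIDO3ΔE16 and 11.5 TPM in DIDO3ΔCT+HADIDO3. Pluripotent ESC markers summed to between 5179.3 and 7791.7 TPM in the 9 libraries. Of 10 feeder fibroblast markers, 8 were tested in DIDO3ΔE16 against WT and all 8 passed as higher. Their list summed to 122.8 to 129.8 TPM in DIDO3ΔE16, 59.2 to 64.3 in WT and 55.8 to 60.7 in DIDO3ΔCT+HADIDO3, with Lum and Dcn under 1 TPM in every library. The make-up of that sum differed in DIDO3ΔCT+HADIDO3, where Thy1 alone averaged 54.4 TPM against 19.1 TPM in WT. Col1a1 averaged 11.7 TPM in WT and 1.14 TPM in DIDO3ΔCT+HADIDO3, Col1a2 18.2 and 0.239 TPM, and Prrx1, Postn, Col3a1 and Twist2 were under 0.1 TPM in its 3 libraries. Of 4 feeder markers tested in that comparison, 3 passed as lower and 1, Thy1, as higher (median log2 fold change -2.23). The part of feeder RNA in the OXPHOS values was not tested. In bulk RNA, fewer cells and less RNA per cell cannot be told apart. The library codes of WT 1 and WT 4 start with C7A9, and those of the other 7 libraries with C79M. This opening part of the code was taken here as a run family. The labels give the codes but name no run or batch, and each opening covers different full codes. Values within a family rest on WT 2-3 alone.

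OXPHOS sites were short at their 3′ ends. Their median 3′UTR was 189 bases, against 775 over all sites, and 23.9% of them were under 100 bases against 10.5%. The added 2 kb therefore made up 91.4% of the median OXPHOS site. The site of 26 members (23%) held exon bases of another protein-coding gene, against 19.4% of all sites, and in 21 of them these lay on the opposite strand. No strand option appears in the StringTie command that the headers record, so signal from the 2 strands may not have been separated.

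Selected 3′ ends are shown because the 3′ end defines what was measured. They are those of altered members whose 3′UTR end matched the end of a GENCODE transcript, and of some paralogs. Altered members without such a match are not shown. GENCODE transcripts ended at the 3′UTR end of 44 member sites. AATAAA, the main polyadenylation signal, stood in the last 40 bases of 29 of them (65.9%), against 50.8% of 14290 sites over all genes. ATTAAA alone stood in 8 (18.2% against 12.6%), and neither in 7 (15.9% against 36.6%). Below are the last 30 bases, 5′ to 3′ in mm10, with the signal in capitals: Cox6c (chr15:35931976-35932005, minus strand), Sdhaf4 (chr1:23995939-23995968, minus), Atp5e (chr2:174461075-174461104, minus), Ndufs7 (chr10:80256763-80256792, plus) and the second site of Ndufb8 (chr19:44548572-44548601, minus). Ubiquitous Cox6b1 (chr7:30616974-30617003, minus) and its testis paralog Cox6b2 (chr7:4751792-4751821, minus) both held AATAAA, and hypoxia- and lung-linked Cox4i2 (chr2:152765008-152765037, plus) held neither signal.
Cox6c: ttcAATAAAcagtaattatatggacagtaa
Sdhaf4: taAATAAAgacctcttgaaatttttcttta
Atp5e: tatgccAATAAAttaacatggttcactttc
Ndufs7: aatcccttgtgAATAAAcccatcctgatcc
Ndufb8: actcaaccgAATAAAagaaatggtgtaagt
Cox6b1: aactactAATAAAaactcactggaaaagtt
Cox6b2: gtgccacaAATAAAgttattgtgctgctaa
Cox4i2: agcagcctgctttgttctgcttgcaaactc

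Levels spread widely within each complex. Of 97 lead sites, 21 had a mean of at least 100 TPM, 65 lay from 1 to 100 and 11 were under 1. The catalytic core of the ATP synthase was high: Atp5a1, its alpha subunit, had 517.5 TPM and Atp5b, its beta subunit, 307.4 TPM over the 9 libraries. In complex II, the membrane anchors Sdhc (511.2 TPM) and Sdhd (429.8 TPM) exceeded the flavoprotein Sdha (199.6 TPM) and the iron-sulfur subunit Sdhb (19.6 TPM). Uqcr10 (170.9 TPM) and Uqcrh (97.9 TPM), small subunits of complex III, led that complex. TPM are per length, but they compare 3′ sites here, not whole transcripts.

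Some of the highest and lowest values lay beside other genes. Of 12 lead sites of at least 300 TPM, 5 held an exon of a gene on the opposite strand. Ndufb10, an accessory subunit of complex I, had the highest value (1531.8 TPM), and 1672 of its 2050 bases were exons of the ribosomal protein gene Rps2. Cox7a1, the heart and muscle isoform (1044.6 TPM), held 657 exon bases of Capns1. The same held for Ndufa4l2 (666.8 TPM, Shmt2), Ndufb7 (418.1 TPM, Tecr) and Cox8b (345.4 TPM, Psmd13). At the other end, Ndufa6, Ndufb9, Atp5j and Atp5j2 were listed at 0 in every library. Each of these 4 overlapped an exon of a gene on the opposite strand (Smdt1, Mtss1, Jam2 and Cpsf4) whose own site had 126 to 230 TPM on average. Of the 11 lead sites under 1 TPM, 7 held such an exon. A 0 here is therefore no measure of an unexpressed subunit, and how the reads of such pairs were assigned was not tested.

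Where paralog sites held no coding exon of an abundant opposite gene, the ubiquitous form was the higher one. Cox4i1 had 53.2 to 68.9 TPM across the 9 libraries, and Cox4i2 at most 0.761 TPM. Cox6a1 had 147.1 to 467.3 TPM and its muscle form Cox6a2 at most 0.205 TPM. The Cox6a1 site holds no such exon but overlaps the opposite-strand site of Triap1, which averaged 154.1 TPM. Cox8a had 299.7 to 411.3 TPM and the testis form Cox8c 0.157 to 1.25 TPM. For Cox7a1, Cox8b and Ndufa4l2, the opposite exons named above share the site. Ndufa4 had 89.9 to 109.1 TPM, with no other coding exon in its site.

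**Figure D1:**
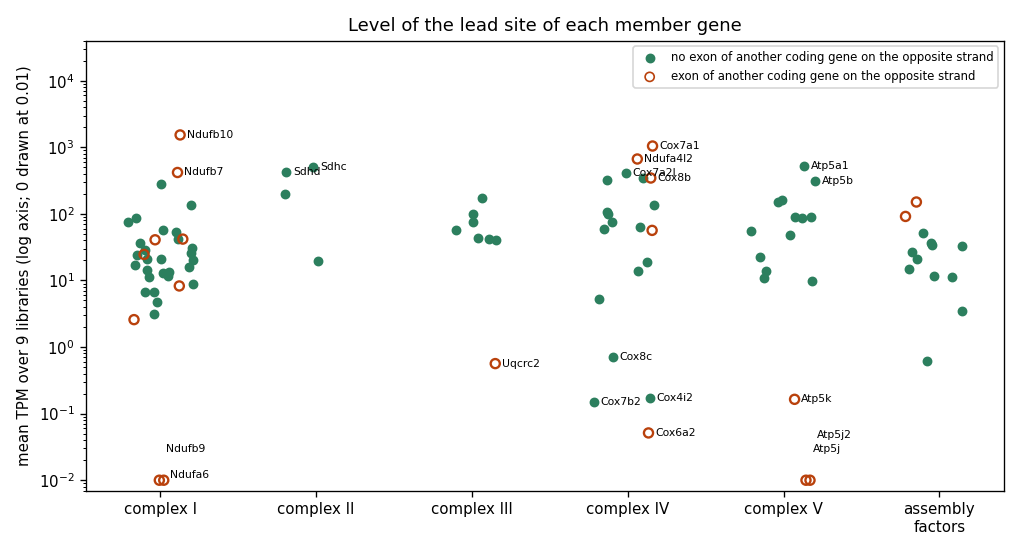
Mean TPM over the 9 libraries of the lead site of each OXPHOS gene on a log axis, by complex, with sites listed at 0 drawn at 0.01; open circles hold an exon of another coding gene on the opposite strand. Ndufb10 (1531.8 TPM) and the 4 genes listed at 0 are all open circles.

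In DIDO3ΔE16 against WT, OXPHOS genes changed little. A site passed if its adjusted p was under 0.05 (limma, adjusted over all sites tested), and it was altered if the log2 fold change was also 0.7 or more in either direction. Of 105 member sites tested, 1 was altered, upwards (0.952%), against 15.1% of all 21063 sites tested (10.2% higher and 4.94% lower). Another 13 passed below that fold, so that 14 passed in all (13.3%, against 33.2% of all sites): 2 higher (all sites 15.9%) and 12 lower (all sites 17.4%). Without DIDO3ΔE16 3 it was 2 and 7. Of all altered sites, 67.4% were higher, and 55% with quantile normalization. The median log2 fold change of the members was -0.06, against -0.01 over all sites. In 31 member sites (29.5%) the groups did not overlap, against 49.4% of all sites (27.6% with DIDO3ΔE16 higher).

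The altered member was Uqcrc2, a matrix-facing subunit of complex III, at a low level. It had 0.188, 0.218 and 0.223 TPM in WT 1, WT 2-3 and WT 4, and 0.935, 1.5 and 0.631 TPM in DIDO3ΔE16 1 to 3. All 3 DIDO3ΔE16 libraries were above WT, and the log2 fold change was 1.73 (SE 0.334, adjusted p = 0.0144). With run family as a covariate it was 1.69 (adjusted p = 0.101). Its site holds 1258 exon bases of Pdzd9 on the opposite strand. The Pdzd9 site itself averaged 154.2 TPM in WT and had 2.04, 193.9 and 105.4 TPM in DIDO3ΔE16 1 to 3. How the reads of this pair were assigned was not tested. Uqcrc1, the partner subunit, gave -0.13 (adjusted p = 0.432).

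Complex II, with only 4 sites, had the largest share of passes of the complexes (75%, against 33.2% of all sites). In it, 3 of 4 subunits passed as lower (all sites 17.4%), each by a small amount. Sdha had 222.1, 218.9 and 222.3 TPM in WT and 195.7, 199.0 and 208.2 TPM in DIDO3ΔE16. Sdhd had 430.2, 437.7 and 456.1 TPM in WT and 383.5, 383.0 and 397.4 TPM in DIDO3ΔE16. For both genes every DIDO3ΔE16 library lay under every WT library. The log2 fold changes were -0.20 (SE 0.0308, adjusted p = 0.00678) for Sdha and -0.25 (SE 0.0399, adjusted p = 0.00797) for Sdhd. Sdhc gave -0.20 (adjusted p = 0.0393), a call lost under 11 of 18 alternatives. Sdhb, with 17.4 to 18.9 TPM in WT and 17.6 to 18.3 TPM in DIDO3ΔE16, overlapped between groups. With run family as a covariate, Sdha gave -0.19 (adjusted p = 0.0673), Sdhd -0.24 (adjusted p = 0.0716) and Sdhc -0.20 (adjusted p = 0.18), so these 3 calls were not kept.

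Elsewhere, passes were few. In complex IV, 0 of 20 tested sites passed under limma, with 2 at an unadjusted p under 0.05. In complex I, 4 of 39 passed: Ndufab1, the mitochondrial acyl carrier protein, was higher (0.54, adjusted p = 0.0144), and Ndufa2, Ndufb7 and a second site of Ndufs1 were lower (-0.43, -0.29 and -0.16). Complex V gave 2 of 16, both sites of Atp5f1, a stalk subunit (-0.23 and -0.25). Uqcrfs1, the Rieske iron-sulfur protein of complex III, was lower (-0.28, adjusted p = 0.00468). Among assembly factors, 3 of 18 sites passed, all lower: Ndufaf6 (-0.48), Sdhaf4 (-0.34) and Sdhaf2 (-0.22). With run family as a covariate, the members that passed were 2, both lower: Atp5f1 (-0.32) and Cox6b2 (-7.58), whose WT libraries ranged from 0.001 to 29 TPM.

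**Figure D2:**
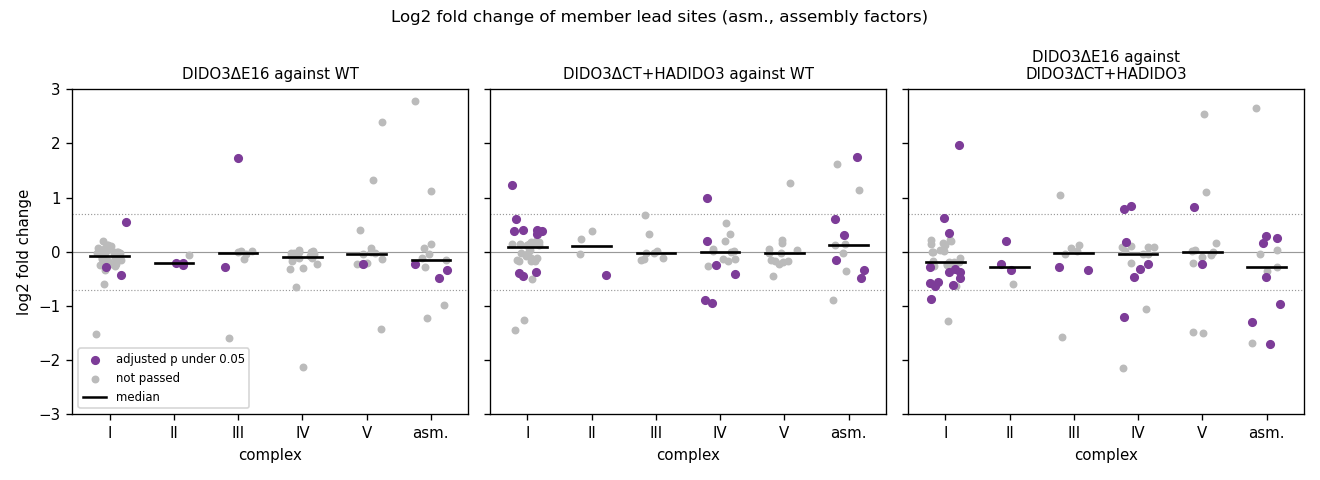
Log2 fold change of each OXPHOS lead site, by complex, in the 3 comparisons; purple points passed an adjusted p of 0.05, bars are medians and dotted lines mark 0.7 up and down. In DIDO3ΔE16 against WT, Uqcrc2 (1.73) is the purple point beyond the dotted lines.

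**Figure D3:**
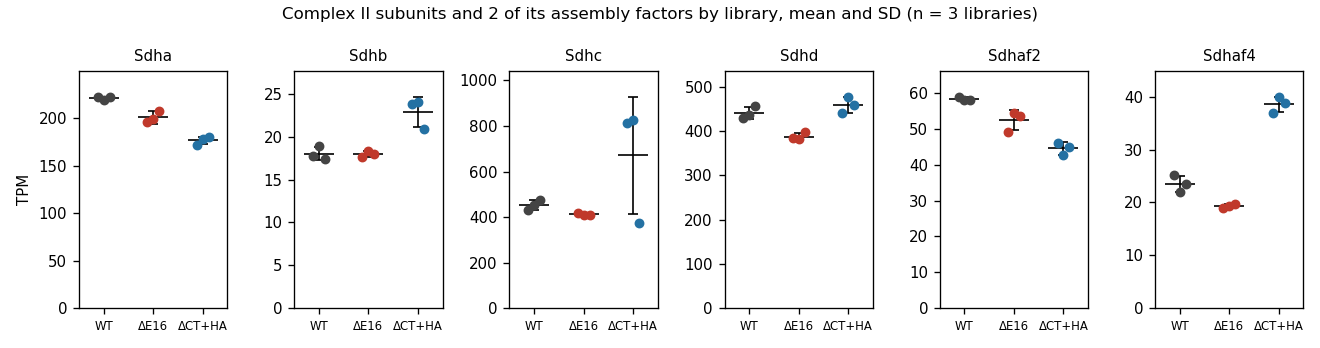
TPM of the 4 complex II subunits and of the assembly factors Sdhaf2 and Sdhaf4, each point 1 library, with mean and SD (n = 3). Sdha falls from WT (221.1) to DIDO3ΔE16 (201.0) and DIDO3ΔCT+HADIDO3 (176.9), and Sdhc splits within DIDO3ΔCT+HADIDO3.

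In DIDO3ΔCT+HADIDO3 against WT, more OXPHOS sites passed, in both directions. This comparison uses the same WT libraries. Of 104 sites tested, 6 were altered (5.77%, against 17.3% of all 20879 sites), 4 higher (all sites 10.1%) and 2 lower (all sites 7.24%). At the p alone 25 passed (24%, against 38.4%), 14 higher (all sites 18.5%) and 11 lower (all sites 20%). Without scaling between libraries the split was 24 higher and 7 lower, with run family as a covariate 8 and 6, and leaving out DIDO3ΔCT+HADIDO3 1 or WT 2-3 it was 7 and 8, or 8 and 8. The median was 0.02, against -0.01 over all sites and -0.03 over those of at least 1 TPM. Groups did not overlap in 51 (49%, against 53.5% of all sites, and 32% with DIDO3ΔCT+HADIDO3 higher).

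Both members altered downwards were accessory subunits of cytochrome c oxidase, complex IV. Cox6c had 66.7, 64.6 and 66.8 TPM in WT, 65.8, 63.9 and 66.1 TPM in DIDO3ΔE16, and 37.1, 38.8 and 38.7 TPM in DIDO3ΔCT+HADIDO3. Only the DIDO3ΔCT+HADIDO3 libraries were low, with a log2 fold change of -0.89 against WT (SE 0.0362, adjusted p = 0.000149) and of -0.86 within the run family (adjusted p = 0.00299). Its site, chr15:35929976-35935299, holds 1254 exon bases of Vps13b on the opposite strand, whose own site fell from a mean of 4.73 to 1.61 TPM. Cox7c had 17.3, 15.4 and 16 TPM in WT, 14.3, 16.7 and 17.2 in DIDO3ΔE16, and 7.54, 9.61 and 10.1 in DIDO3ΔCT+HADIDO3. Here too the other 2 groups overlapped and DIDO3ΔCT+HADIDO3 lay below both (-0.94 against WT, SE 0.116, adjusted p = 0.00297). Cox5a (-0.42) and Cox7a2 (-0.24) also passed as lower and Cox7a2l, a supercomplex factor, as higher (0.19), but each of these 3 calls was lost under 7 of 18 alternatives, run family as a covariate among them, and Cox7a2l reversed under 1 more. Adjusted p reached 0.174 for Cox5a, 0.116 for Cox7a2 and 0.751 for Cox7a2l. Cox4i1 gave -0.13 (adjusted p = 0.395).

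The members altered upwards were low. Ndufaf5, a complex I assembly factor, had 0.46, 0.111 and 0.348 TPM in WT and 1.16, 1.31 and 1.26 TPM in DIDO3ΔCT+HADIDO3 (1.75, SE 0.403, adjusted p = 0.0226). Ndufs7, an iron-sulfur core subunit of complex I, had 1.01, 1.78 and 2.21 TPM in WT and 3.44, 4.08 and 5.22 TPM in DIDO3ΔCT+HADIDO3 (1.24, SE 0.327, adjusted p = 0.0342), at a site with 523 exon bases of Gamt on the opposite strand. Neither pair of groups overlapped. Both calls were lost without any 1 of the DIDO3ΔCT+HADIDO3 libraries (adjusted p up to 0.0697 for Ndufaf5). Ndufs7 also lost its call without WT 2-3, in 1 fit of all 9 libraries and with run family as a covariate (1.09, adjusted p = 0.198). The second site of Ndufb8 had at most 0.088 TPM in WT and 0.477 to 0.835 TPM in DIDO3ΔCT+HADIDO3 (1.96, adjusted p = 0.00308), and its lead site gave -0.03 (adjusted p = 0.631). With TPM summed over all features of Ndufb8, the call was lost (adjusted p = 0.675). Cox8c gave a log2 fold change of 1 (adjusted p = 0.038) from 0.466 TPM in WT, a call lost under 8 of 17 alternatives (adjusted p up to 0.174), among them leaving out any 1 DIDO3ΔCT+HADIDO3 library, WT 1 or WT 2-3. With a stricter filter, a mean of at least 1 TPM, Cox6c, Cox7c and Ndufs7 were the 3 altered members.

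In complexes III and V, 0 of 8 and 0 of 16 sites passed under limma, with 1 in each at an unadjusted p under 0.05. Their medians were -0.02 and -0.03. In complex II, Sdha was lower again, at 172.3, 178.2 and 180.0 TPM (-0.43, SE 0.0279, adjusted p = 0.000488), below both other groups. Sdhd gave -0.04 (adjusted p = 0.519). Sdhc had 812.1 and 827.4 TPM in DIDO3ΔCT+HADIDO3 1 and 2 but 371.9 TPM in DIDO3ΔCT+HADIDO3 3, and its change of 0.38 did not pass (adjusted p = 0.47). Factors that act on complex II moved in both directions: Sdhaf4, which helps to load the flavoprotein, rose by 0.61 (adjusted p = 0.00144), Sdhaf1, an iron-sulfur factor, rose by 0.30 (adjusted p = 0.0185, lost under 6 of 18 alternatives, among them without DIDO3ΔCT+HADIDO3 1 or 2, WT 1 or WT 2-3), and Sdhaf2, which adds FAD to Sdha, gave -0.49 (adjusted p = 0.00131).

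In complex I, 9 sites passed as higher and 3 as lower of 39 (30.8%, against 38.4% of all sites and 31.6% in complex IV), with a median of 0.14. Ndufv3, a subunit of the flavoprotein arm, had 12.5, 14.2 and 14.4 TPM in WT and 22.4, 22.6 and 22 TPM in DIDO3ΔCT+HADIDO3, without overlap (0.60, SE 0.0811, adjusted p = 0.004). Some of the 9 higher sites, those of Ndufs1 and Ndufb3 among them, are on chromosome 1. Without chromosome 1, complex I had 5 higher and 3 lower of 33, and a median of 0.06.

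Chromosome 1 stood apart in this line over all genes, not in OXPHOS genes alone. All 783 sites of chromosome 1 with at least 5 TPM had a median log2 fold change of 0.24 against WT, while the medians of the 19 other chromosomes ran from -0.17 to -0.04. Each DIDO3ΔCT+HADIDO3 library gave the same median of 0.27 over 781 of these sites relative to the WT mean, against -0.06 to -0.08 for other chromosomes, and DIDO3ΔE16 libraries gave -0.08 to -0.11. All 9 OXPHOS sites tested on chromosome 1 had a positive change, with a median of 0.38, and 5 of the 14 higher passes were there, Ndufb3, Ndufs1 and Sdhaf4 among them. For Ndufb3, WT had 14.4, 14.9 and 16 TPM and DIDO3ΔCT+HADIDO3 21.6, 21.6 and 21.7 TPM, without overlap (0.41, SE 0.0654, adjusted p = 0.00662). Off chromosome 1, 9 sites passed higher and 11 lower, with a median of -0.02. The part of this chromosome-wide shift in the change of any 1 gene was not tested.

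**Figure D4:**
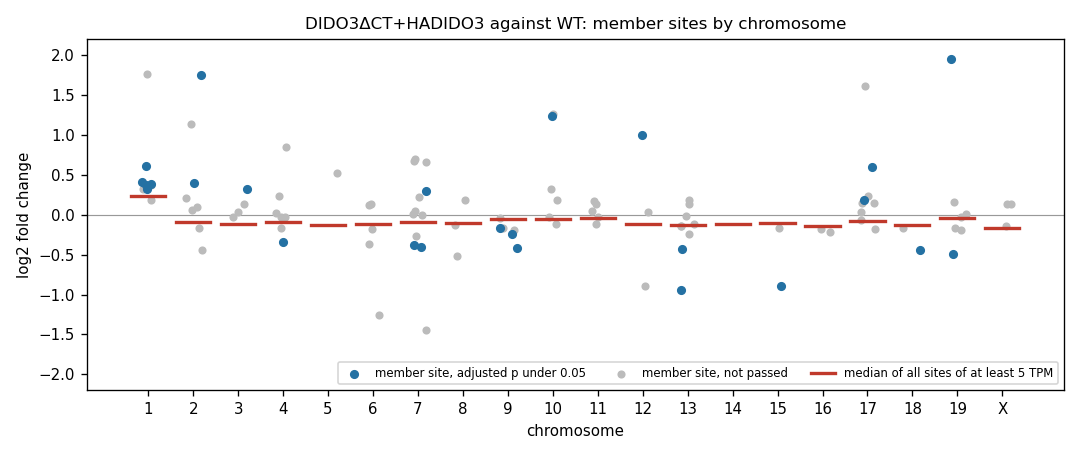
Log2 fold change of each tested OXPHOS site in DIDO3ΔCT+HADIDO3 against WT, by chromosome; blue points passed, and red bars are medians of all sites of at least 5 TPM on that chromosome. Chromosome 1 has the bar above 0 (0.24); 1 member site lies outside the axis.

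The mutants were also compared directly with each other, without WT. Of 104 sites tested, 10 were altered (9.62%, against 27.4% of all 21172 sites), 4 higher (all sites 13.9%) and 6 lower (all sites 13.4%) in DIDO3ΔE16. At the p alone 38 passed (36.5%, against 49.2%), 11 higher (all sites 24.4%) and 27 lower (all sites 24.8%) (5 and 18 without DIDO3ΔCT+HADIDO3 2), and groups did not overlap in 55 (52.9%, against 61.6% of all sites, and 31.9% with DIDO3ΔE16 lower). The median was -0.08, against 0.01 over all sites and -0.02 over those of at least 1 TPM. Complex I had 13 lower and 3 higher of 39 (median -0.23), and its core subunits 4 lower of 9 (median -0.56). On chromosome 1, 8 of the 9 member sites passed, all lower; elsewhere 11 were higher and 19 lower, with a median of -0.04.

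The members higher in DIDO3ΔE16 came from complexes I, IV and V. Atp5e, the epsilon subunit of ATP synthase, had 117.7, 119.4 and 112.7 TPM in DIDO3ΔE16 and 65.6, 70.8 and 64.5 TPM in DIDO3ΔCT+HADIDO3 (0.82, SE 0.0547, adjusted p = 0.000236). WT split, with 62.0 TPM in WT 1, 71.1 in WT 4 and 137.0 in WT 2-3, so that neither comparison with WT passed (adjusted p = 0.406 and 0.354). Each of these comparisons passed under 1 of 18 alternatives. Over the alternatives, the log2 fold change ran from -0.30 to 0.75 in DIDO3ΔE16 and from -1.14 to -0.09 in DIDO3ΔCT+HADIDO3. Ndufab1 had 18.4, 17.8 and 15.8 TPM in DIDO3ΔE16, above 10.4, 12.3 and 11.4 TPM in WT, and 8.85, 3.43 and 2.8 TPM in DIDO3ΔCT+HADIDO3 (1.97 between the mutants, SE 0.464, adjusted p = 0.0194). Its 3 groups did not overlap. The call was lost with TPM summed over all features of the gene, and without DIDO3ΔCT+HADIDO3 2 or any 1 of the DIDO3ΔE16 libraries (adjusted p up to 0.22 over all alternatives). A second site of Ndufab1, which shares bases with the lead site, went the other way (-1.46, adjusted p = 0.295). It had 12.7 TPM in DIDO3ΔCT+HADIDO3 2. Cox6c (0.79, adjusted p = 7.59e-05) and Cox7c (0.84, adjusted p = 0.00385) were the other 2, through their low DIDO3ΔCT+HADIDO3 values given above.

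The members lower in DIDO3ΔE16 included 3 assembly factors. Sdhaf4 had 19, 19.4 and 19.7 TPM in DIDO3ΔE16, 25.1, 22 and 23.4 in WT, and 37.0, 39.9 and 38.8 in DIDO3ΔCT+HADIDO3 (-0.97, SE 0.0426, adjusted p = 7.41e-05). Its groups did not overlap, and it lies on chromosome 1. Sdhaf1 had 65.6, 30.2 and 65.1 TPM against 124.3, 132.9 and 119.8 TPM (-1.29, adjusted p = 0.0313), and Ndufaf5 gave -1.70 (adjusted p = 0.00215). Ndufv3 (-0.88, adjusted p = 0.000213) and the second site of Ndufb8 (-1.28, adjusted p = 0.0201) were lower in complex I. Cox6a1, a subunit of complex IV, had 309.2, 147.1 and 153.4 TPM against 452.5, 467.3 and 429.0 TPM (-1.21, SE 0.326, adjusted p = 0.0322). With the replicate number as a block, Sdhaf1, Cox6a1 and the second site of Ndufb8 did not pass. Sdhaf1 and Cox6a1 were also lost without any 1 of the DIDO3ΔCT+HADIDO3 libraries, and Cox6a1 without DIDO3ΔE16 2 or 3. The Ndufb8 site was lost without replicate 2 or 3 of either mutant, and with TPM summed over all features of the gene. The site of Triap1, which overlaps that of Cox6a1 on the opposite strand, had 130.0, 68.6 and 66.2 TPM against 214.5, 214.8 and 213.8 TPM. In WT both sites were low in WT 2-3 (177.9 TPM for Cox6a1 and 102.9 TPM for Triap1) and higher in WT 1 and WT 4, so that the values of the pair followed each other across libraries. For DIDO3ΔCT+HADIDO3 against WT, the Cox6a1 change of 0.53 became 1.23 with run family as a covariate, which rests on WT 2-3 alone.

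**Figure D5:**
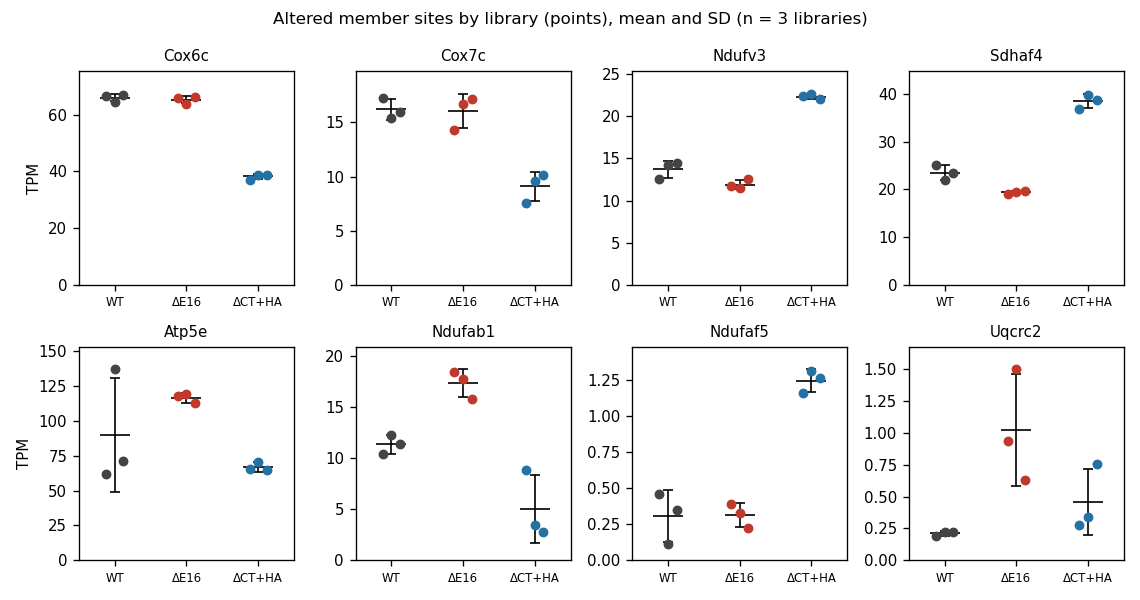
TPM of 8 altered OXPHOS sites in WT, DIDO3ΔE16 (ΔE16) and DIDO3ΔCT+HADIDO3 (ΔCT+HA), each point 1 library, with mean and SD (n = 3); each axis starts at 0. Cox6c and Cox7c are low in ΔCT+HA alone, and WT 2-3 (137.0 TPM) stands apart for Atp5e.

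The subunits at the center of each enzyme differed little between lines. Atp5a1 had 513.7, 496.5 and 506.6 TPM in DIDO3ΔE16 and 517.4, 537.2 and 550.0 TPM in WT (-0.14, 95% interval -0.25 to -0.04, adjusted p = 0.053). Atp5b gave -0.00 (interval -0.18 to 0.17) and, in DIDO3ΔCT+HADIDO3, -0.03 (interval -0.20 to 0.14). Cox4i1 gave -0.03 (interval -0.34 to 0.28) and -0.13 (interval -0.39 to 0.14), and Uqcrc1 -0.13 (interval -0.41 to 0.16) and -0.16 (interval -0.45 to 0.12). For these genes, a change as large as 0.7 lay outside the interval in both comparisons. A p above the threshold does not show equal levels.

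Some members could not be read because replicates disagreed. Of 88 sites reaching 10 TPM, 13 (14.8%) differed over 10-fold within a group, near the 14.9% of all 13393 such sites. Of 52 that shared no base with another site and held no exon of another coding gene, it was 5 (9.62%). The share of all such sites was not computed. The lead site of Atp5g3, which encodes the c-ring subunit, had 177.2 TPM in WT 2-3 but 0.775 and 1.15 in WT 1 and WT 4, and its alternation recurred in both mutants (0.556 to 226.9 TPM in DIDO3ΔE16). Atp5c1, the gamma subunit, had 0.537 TPM in WT 1 and 30.6 and 30.3 TPM in the other WT libraries. Atp5g1 had 3.83 TPM in DIDO3ΔE16 2 and 48.9 and 44.2 TPM in the other DIDO3ΔE16 libraries. No change was read for these genes.

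Genes around OXPHOS were counted by lead site, to be read against the 33.2% of all sites that passed in DIDO3ΔE16 and the 38.4% in DIDO3ΔCT+HADIDO3, each against WT. Of 34 further assembly factors tested, 4 passed as higher and 12 as lower in DIDO3ΔE16 (47.1%), and 5 and 7 in DIDO3ΔCT+HADIDO3 (35.3%). Of 8 OXPHOS subunits and carriers outside the prefixes, 0 were higher and 3 lower (37.5%), then 1 and 1 (25%). Among these, Cyc1, the cytochrome of complex III, had 53.1, 51.1 and 54.0 TPM in WT, 31.1, 32.1 and 29.7 TPM in DIDO3ΔE16, and 68.6, 63.8 and 68.0 TPM in DIDO3ΔCT+HADIDO3. Its groups did not overlap (-0.83, adjusted p = 0.000506, and 0.24, adjusted p = 0.0164). Of 15 tricarboxylic acid cycle and pyruvate dehydrogenase genes, 2 were higher and 6 lower in DIDO3ΔE16 (53.3%), and 3 and 4 in DIDO3ΔCT+HADIDO3 (46.7%). Glycolysis gave 1 higher and 6 lower of 21 (33.3%), then 1 and 1 (9.52%), and mitochondrial ribosomal protein genes 7 and 14 of 76 (27.6%), then 8 and 23 (40.8%). Pluripotent ESC markers gave 1 and 2 of 10 (30%), then 2 and 3 (50%), and differentiated lineage markers 3 and 2 of 10 (50%), then 2 and 5 (70%).

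Of 17 regulators of mitochondrial transcription and biogenesis tested, 1 was higher and 2 lower in DIDO3ΔE16 (17.6%, against 33.2% of all sites), and 0 and 6 in DIDO3ΔCT+HADIDO3 (35.3%, against 38.4%). The higher one was Nrf1, a transcription factor known to bind promoters of OXPHOS genes. It had 25.1, 24.9 and 21.9 TPM in WT and 57.6, 60.5 and 61.4 TPM in DIDO3ΔE16, without overlap (1.26, SE 0.0596, adjusted p = 0.000283). In DIDO3ΔCT+HADIDO3 it had 19.1, 20.3 and 18.2 TPM (-0.42, adjusted p = 0.0118). Yy1, another such factor, gave -0.54 in DIDO3ΔCT+HADIDO3 (adjusted p = 0.00273).

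The promoters were searched for letters of these 2 factors and for those of the ETS family. Windows of 300 bases (250 before to 50 after the start, RefSeq, GRCm38.p6) were found for 80 of the 97 genes, 85 windows in all, and both strands were searched. The NRF1 letters GCGCATGCGC stood in 7 windows (8.24%), against 0.971% of 32851 windows over all genes. The core TGCGCA, which can overlap the longer motif, stood in 25.9% against 7.76%, the ETS letters CCGGAAG in 24.7% against 8.86%, and the YY1 letters AAGATGGCG in 9.41% against 1.4%. These matches are letters, not tested binding sites. The long motif is shown in capitals in 3 of these 7 windows, those of genes whose values are given above: Uqcrc1 (chr9:108936668-108936697, plus), Cox6a1 (chr5:115349101-115349130, minus) and Ndufaf5 (chr2:140170652-140170681, plus). Their changes in DIDO3ΔE16 against WT did not pass (-0.13, -0.66 and 0.07).
Uqcrc1: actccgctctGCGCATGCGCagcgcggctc
Cox6a1: caggaacgggGCGCATGCGCgctctcgctc
Ndufaf5: agtcccgttgGCGCATGCGCctaatagaaa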

How the data were processed

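The authors aligned stranded RNA-seq reads to mm10 with BWA (0.7.15), removed duplicates and ran StringTie (1.3.3) on UCSC 3′UTRs extended by 2 kb; the tool versions are from the submitters' processing notes. The values in TPM were made by StringTie and deposited by the authors for each feature in each library, with no scaling between libraries. Coverage per feature, as deposited, served for depth only. The authors tested TPM with edgeR; their comparison results were not used here.

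Symbols came from GENCODE M21 by stop codon or overlap. Sites were tested if TPM was above 0 in every library of a comparison. Libraries were brought to a common scale with a mean of log2 ratios after 30% was cut from either end, a pseudocount of 0.1 was applied, and limma (3.58.1, R 4.3.3; trend and robust) gave 2-sided p-values, adjusted by Benjamini-Hochberg over all sites. Fold changes are on the log2(TPM + 0.1) scale, which understates low genes. With 3 against 3 libraries, an exact permutation test cannot go below p = 0.1 and was not used. The fit was tested on data simulated from WT sites of at least 1 TPM. As altered, it recovered 64% of sites changed by a log2 of 1 and 78% of those changed by 2. Python 3.11.15, numpy 2.4.6, pandas 2.3.3, scipy 1.17.1 and matplotlib 3.10.9 were used.

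The members and lists were chosen with earlier results of these data known. Named were altered sites, the 3 highest and 3 lowest passing lead sites of at least 1 TPM in each comparison, the most and least abundant genes of each complex, core subunits and paralog pairs. Nrf1, Yy1, Cyc1, Ndufb3 and other members outside this rule were named after their values were seen. Values of 1 member gene are not reported here. Alternatives covered pseudocounts, filters, scaling, summing, thresholds, run family, moderation and leaving out each library; 3 more that restrict the members were added after seeing the data.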

Additional observations from a re-analysis of the deposited data

Results flagged for a closer look

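10 OXPHOS sites differed between the mutants by the direct test (limma, adjusted p under 0.05 and a log2 difference of 0.7 or more in either direction), given as DIDO3ΔE16 against DIDO3ΔCT+HADIDO3. Higher in DIDO3ΔE16 were Ndufab1 (1.97), Cox7c (0.84), Atp5e (0.82) and Cox6c (0.79). Lower in DIDO3ΔE16 were Ndufaf5 (-1.70), Sdhaf1 (-1.29), the second site of Ndufb8 (-1.28), Cox6a1 (-1.21), Sdhaf4 (-0.97) and Ndufv3 (-0.88). In each of the 10, every library of 1 mutant lay above every library of the other, as in 61.6% of all sites tested. The 10 were picked by the test on these same libraries, so this is no separate support. The calls of Ndufab1 and of the second site of Ndufb8 were lost with TPM summed over all features of the gene.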

How the results depend on the processing

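For DIDO3ΔE16 against WT, the count of 1 altered member became 2 in 1 fit of all 9 libraries (Uqcrc2, Sdhaf1), with no filter on low values (Uqcrc2, Atp5k), with quantile normalization (Uqcrc2, a second site of Ndufab1) and with single features. It became 0 with a mean of at least 1 TPM, a pseudocount of 1, an adjusted p under 0.01, or member sites with no exon of another coding gene (added after seeing the data), and 14 with no fold threshold. Leaving out each library gave 1 to 4; without DIDO3ΔE16 2 it was 4, with 3 sites of Ndufaf2, and without WT 2-3 it was 2, with Atp5e. The median of -0.06 became 0.00 without scaling and -0.15 to -0.04 with each library left out, the lowest without WT 1. With run family as a covariate, none of the 11 named members that passed against WT was kept.

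For DIDO3ΔCT+HADIDO3 against WT, the count of 6 became 3 with a mean of at least 1 TPM or an adjusted p under 0.01, 25 with no fold threshold, and 4 to 8 with each library left out. The median of 0.02 became 0.12 without scaling, where the median of all sites was 0.083, and -0.06 to 0.03 with each library left out. For DIDO3ΔE16 against DIDO3ΔCT+HADIDO3, the count of 10 became 6 with an adjusted p under 0.01 and 38 with no fold threshold, and 7 to 10 with each library left out. The median of -0.08 became -0.14 summed by gene, -0.15 over sites that share no base, -0.19 over sites with no other coding exon, and -0.12 to -0.03 with each library left out. Cox7a2l reversed with single features (-0.13 against WT, 0.06 between mutants). The cause of these shifts was not tested beyond what each setting itself changes. Of 17 named passes in DIDO3ΔCT+HADIDO3, 6 held under every alternative, and of 23 between the mutants, 12 did.

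Replicate numbers did not pair the mutants (correlations of deviations 0.01, 0.02 and 0.02); with the replicate block, 7 of the 10 altered members were kept (not Sdhaf1, Cox6a1 and the second site of Ndufb8) and the median was -0.08. No paired analysis was possible because WT shares fewer than 2 unambiguous numbers with either mutant, in the comparisons with WT. With 3 libraries a group, small changes can be missed, and in the simulated data some changes of log2 1 and 2 were missed too.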
